A study of Homo sapiens with 18 samples.

Results

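MIA PaCa-2 and PATU8988T cells, 2 human pancreatic cancer lines, were compared using the control libraries of an RNA sequencing series on loss of the centrosomal protein OFD1. The 6 libraries used here, 3 per line, were chosen by line and control label out of 18 in the series, and genes were kept when their mean over the 6 reached 1 FPKM (a read count corrected for gene length and library size). Of 26668 genes in the table, 11084 reached that level and 173 of these were set aside because every one of the 6 libraries of one line, shOFD1 libraries included, listed them at 0. The remaining 10911 genes were tested. The control titles read shControl and the samples carry a wild-type genotype and no treatment, whereas the published methods describe cells bearing a doxycycline-inducible hairpin against OFD1 that were given solvent in place of doxycycline. Both lines were grown in the same serum-containing medium, and the 3 shOFD1 libraries of each line, from cells given doxycycline for 72 hours to express the hairpin, serve below as a second comparison of the same lines. Each line stands for 1 tumour, so the line and the handling of its libraries cannot be told apart, and no source used here says that the replicates were separate cultures. The p-values therefore measure only the spread between these libraries, which may be technical.

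Pancreatic ductal adenocarcinoma cells range from epithelial states, with cadherin and desmosome contacts, claudin and occludin seals, and simple keratins, to mesenchymal states, in which the repressors ZEB1 and SNAI1 switch off junction genes and the intermediate filament protein vimentin is abundant. Metabolically, such tumours differ in how much they rely on glucose and lactate, on sterol and lipid synthesis, and on mitochondrial fuel. In signalling, they differ in which receptor kinases, TGF-beta and BMP receptors, NOTCH ligands and YAP and TEAD target genes they express.

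Reads counted onto genes, recovered from the FPKM steps, ran from 35257402 to 39797537 per control library. Within a line, libraries correlated at 0.973 to 0.997 on the log2 scale over genes, and between lines at 0.704 to 0.715. MIA PaCa-2 control 2 stood apart from its 2 replicates, its recovered reads differing from theirs by a chi-square of 130 and 132 per degree of freedom, compared with 3.045 between those 2 and 3.45 to 4.92 among the PATU8988T controls. Every count was therefore repeated without it. OFD1 itself measured 3.09, 2.27 and 3.2 FPKM in the MIA PaCa-2 controls and 2.14, 1.93 and 2.12 FPKM in the PATU8988T controls, and its log2 difference of 0.43 did not reach the 2-fold threshold. In the shOFD1 libraries it was at 1.74 to 1.97 FPKM and 0.854 to 0.986 FPKM. BRCA1, the homologous recombination gene at the centre of the series, was at 10.4, 7.22 and 10.9 FPKM in MIA PaCa-2 and 4.59, 4.73 and 4.4 FPKM in PATU8988T, a log2 difference of 1.02 that lay just past the threshold and was not called without MIA PaCa-2 control 1 (0.94), MIA PaCa-2 control 3 (0.91) or PATU8988T control 3 (0.99).

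A gene was called when limma gave a Benjamini-Hochberg adjusted p below 0.05 and a fold above 2. Differences are log2(FPKM + 0.1) in MIA PaCa-2 minus PATU8988T, so that positive values mean higher in MIA PaCa-2, and this scale understates the change of low genes. By this rule 1671 genes (15.3% of those tested) were higher in MIA PaCa-2 and 1785 (16.4%) were higher in PATU8988T, 3456 (31.7%) in all, and 799 of the tested genes differed by more than 3 on the log2 scale. An adjusted p below 0.05 alone held for 7301 genes (66.9%), and for 8217 genes (75.3%) the libraries of the lines did not overlap, so separation of the libraries is the ordinary state of a gene here and the fold carries the information. The shares of 15.3% and 16.4% are those to set beside the list counts below, which were not tested against them. The median difference over all tested genes was 0.05. These are bulk libraries, in which fewer cells expressing a gene and less of its RNA per cell cannot be told apart. Without MIA PaCa-2 control 2, 3120 of the 3456 genes were again called in the same direction.

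The largest differences were near on-off contrasts between abundant and barely detected transcripts. ALDH1A1, a retinaldehyde dehydrogenase, was at 942, 744 and 944 FPKM in MIA PaCa-2 and 0, 0.0135 and 0.0129 FPKM in PATU8988T, a log2 difference of 12.97 ± 0.127 (SE; limma adjusted p = 2.8e-08). HSPB1, the small heat shock protein HSP27, was at 1030, 1720 and 1020 FPKM against 0.105, 0.256 and 0.0347 FPKM (log2 difference 12.48). Both genes separated the lines completely. COL1A2 (10.61), the noncoding RNA LINC02154 (10.51), the G protein regulator RGS4 (10.09), KRT19 (10.08), the granin SCG2 (9.4), the secreted serpin SERPINF1 (9.39) and the helix-loop-helix inhibitor ID3 (9.22) followed by log2 difference, and SRGN, the proteoglycan serglycin, was at 111, 93 and 109 FPKM in MIA PaCa-2 and listed at 0 in the PATU8988T controls. In the other direction stood CCN2, a matricellular YAP target, at 0.229, 0.236 and 0.274 FPKM in MIA PaCa-2 and 228, 224 and 225 FPKM in PATU8988T, a log2 difference of -9.35 ± 0.091 (SE; limma adjusted p = 2.8e-08). ANXA3 (-9.32), the cytokine IL32 (-8.91), the desmosomal cadherin DSG2 (-8.79), the secreted WNT-pathway modulator DKK3 (-8.36), the cornified-envelope linker PPL (-8.32), the hypoxia-responsive NDRG1 (-8.17) and the protease inhibitor SPINT2 (-8.08) came next. PLEK2 and the noncoding LOC101929128 averaged 59.7 and 35.9 FPKM in PATU8988T and were listed at 0 in the MIA PaCa-2 controls.

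Most of the junction genes tested were higher in PATU8988T, although E-cadherin was scarce in both lines. CDH1, which encodes E-cadherin, averaged 0.00175 FPKM in MIA PaCa-2 and 0.276 FPKM in PATU8988T, below the level for testing in both. The splicing regulators ESRP1 and ESRP2 were also low, with ESRP2 means of 0.027 and 0.134 FPKM. EPCAM, an epithelial adhesion molecule, was at 0.0991, 0 and 0 FPKM in MIA PaCa-2 and 3.57, 3.52 and 3.05 FPKM in PATU8988T (log2 difference -4.79). Of 32 genes of tight junctions, desmosomes and their adaptors, 21 were tested, 10 were below 1 FPKM and DSC2 was listed at 0 in MIA PaCa-2. Among the 21, 15 were called higher in PATU8988T and 2 higher in MIA PaCa-2, with a median log2 difference of -2.15.

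Desmosome genes gave the widest gaps in that list. DSG2 was at 0.0715, 0.0923 and 0.0717 FPKM in MIA PaCa-2 and 79.5, 79.1 and 78.4 FPKM in PATU8988T. PPL was at 0, 0.00783 and 0.012 FPKM against 32.9, 34.2 and 35.1 FPKM. The plaque proteins PKP2 (-3.55), DSP (-2.55) and JUP (-1.15) were lower in MIA PaCa-2 by smaller log2 differences, while PKP3 (0.98) was not called. Among tight junction genes, LSR (-3.3), CXADR (-3.2), CGN (-3.01) and OCLN (-2.67) had log2 differences in the same direction. The exceptions were CLDN4, a claudin, at 5.09, 9.61 and 4.74 FPKM in MIA PaCa-2 and 0.447, 0.569 and 0.462 FPKM in PATU8988T (log2 difference 3.4), and the envelope protein EVPL (1.47).

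Epithelial regulators split between the lines. Only 8 of 28 in that list were expressed enough to test, and all 8 were called, 3 higher in MIA PaCa-2, as against 5 in PATU8988T. SPINT2, which restrains membrane serine proteases, was at 0.772, 1.12 and 0.728 FPKM against 256, 253 and 272 FPKM. AP1M2, a subunit of the epithelial sorting adaptor AP-1B, was at 0.409, 0.919 and 0.577 FPKM against 70.2, 72.2 and 73.5 FPKM (log2 difference -6.67). The epithelial mucin MUC1 (-2.51) and the transcription factor KLF4 (-1.85) were also higher in PATU8988T. In contrast, 3 epithelial transcription factors were higher in MIA PaCa-2. EHF was at 25.1, 16.6 and 25.3 FPKM and listed at 0 in the PATU8988T controls, TP63, the p63 factor of basal epithelia, was at 14.6, 10.4 and 14.9 FPKM against 0.00767, 0 and 0.00382 FPKM (log2 difference 6.99), and ELF3 had a log2 difference of 3.89.

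Both lines kept simple keratins. KRT8 was at 829, 1190 and 822 FPKM in MIA PaCa-2 and 469, 458 and 483 FPKM in PATU8988T, a log2 difference of 0.99 that fell just short of the threshold and passed it without MIA PaCa-2 control 1 (1.07), MIA PaCa-2 control 3 (1.08) or PATU8988T control 3 (1.01). Its partner KRT18 was at 686, 865 and 687 FPKM against 586, 583 and 582 FPKM. KRT19, a ductal keratin, was at 102, 141 and 105 FPKM in MIA PaCa-2 and at 0, 0 and 0.0194 FPKM in PATU8988T, with a log2 difference of 10.08 ± 0.162 (SE; limma adjusted p = 4.93e-08). The stratified keratins KRT13 (7.75) and KRT15 (4.55) had positive log2 differences too, and KRT80 (-1.18) was higher in PATU8988T. KRT7, another ductal keratin, averaged 0.847 and 0.401 FPKM.

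**Figure D1:**
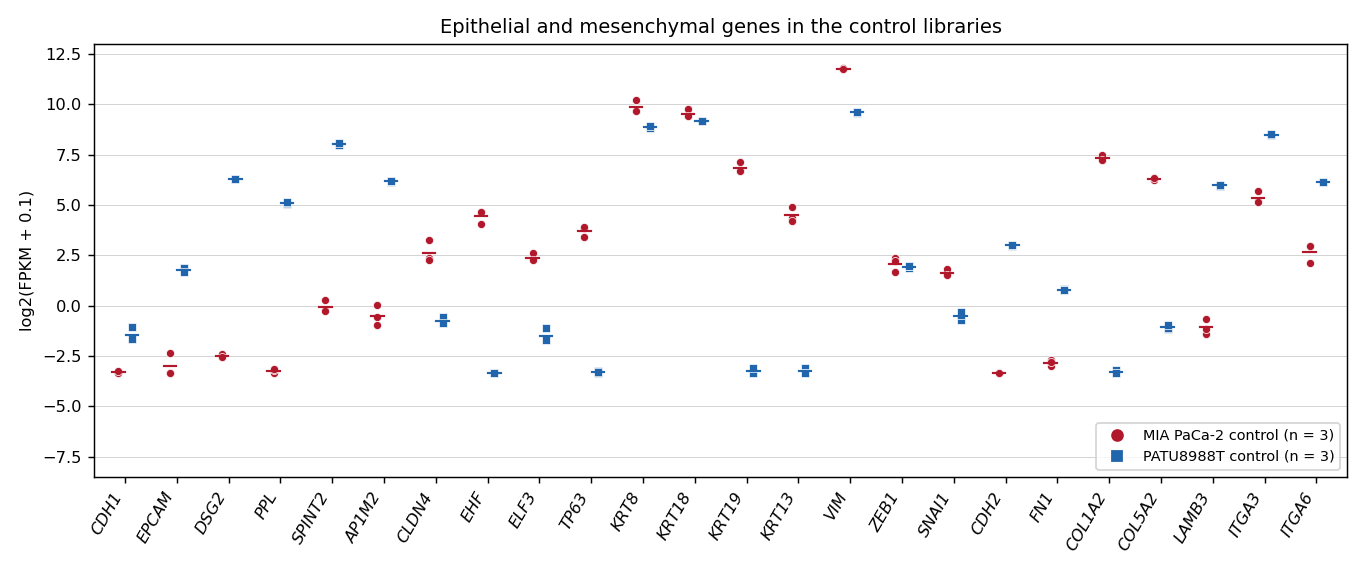
Level of epithelial and mesenchymal genes as log2(FPKM + 0.1) in each control library; circles are the 3 MIA PaCa-2 and squares the 3 PATU8988T libraries, with short lines at the mean. DSG2, PPL, SPINT2 and AP1M2 sit high in PATU8988T, KRT19, EHF and TP63 sit high in MIA PaCa-2, and KRT8, KRT18 and ZEB1 lie close together.

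Promoter sequence was examined for the E-box hexamer CACCTG, or CAGGTG on the other strand, which ZEB and SNAI repressors bind. RefSeq promoters of GRCh38.p14, from 250 bases before to 50 bases after the start, were available for 13 of the 20 epithelial junction and regulator genes called higher in PATU8988T. The hexamer stood in 10 of their 20 promoters (50%), belonging to AP1M2, DSG2, DSP, JUP, MUC1, OCLN, PATJ and TJP1, beside 7231 of 35116 promoters overall (20.6%). A match is a description of letters, not of binding. Members not called were not examined, so the share does not bear on the line difference. The 2 genes of these with the widest gap between the lines are shown, DSG2 at chr18:31497927-31498226 on the plus strand and AP1M2 at chr19:10587263-10587562 on the minus strand, with the hexamers in capitals.
DSG2: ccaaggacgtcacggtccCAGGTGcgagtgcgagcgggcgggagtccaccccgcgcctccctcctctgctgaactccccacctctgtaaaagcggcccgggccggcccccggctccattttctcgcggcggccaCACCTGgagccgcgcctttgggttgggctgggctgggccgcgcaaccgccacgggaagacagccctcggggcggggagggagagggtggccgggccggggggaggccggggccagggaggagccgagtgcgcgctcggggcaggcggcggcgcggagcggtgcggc
AP1M2: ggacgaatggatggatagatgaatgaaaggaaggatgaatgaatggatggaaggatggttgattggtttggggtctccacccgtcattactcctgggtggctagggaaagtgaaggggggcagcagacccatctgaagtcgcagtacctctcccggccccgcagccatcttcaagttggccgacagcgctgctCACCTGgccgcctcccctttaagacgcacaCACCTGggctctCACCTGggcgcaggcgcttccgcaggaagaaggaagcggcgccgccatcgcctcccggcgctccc

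Mesenchymal transcription factors were mostly silent or similar. Of 22, only 6 reached the level for testing. ZEB1 was at 5.03, 3.1 and 4.49 FPKM in MIA PaCa-2 and 3.58, 3.87 and 3.8 FPKM in PATU8988T, overlapping, with a log2 difference of 0.13 ± 0.184 (SE; limma adjusted p = 0.544). Without MIA PaCa-2 control 2, the lowest of its line, the ZEB1 libraries no longer overlapped and the log2 difference was 0.33 (limma adjusted p = 0.00282), still below the 2-fold threshold. SNAI1 was at 2.85, 3.39 and 2.81 FPKM against 0.508, 0.632 and 0.712 FPKM (log2 difference 2.12). ZEB2, TWIST1 and TWIST2 were at or near 0 in both lines.

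Mesenchymal effectors were divided almost evenly, 7 of 26 tested members higher in MIA PaCa-2, as against 8 in PATU8988T, with a median log2 difference of -0.14. VIM, vimentin, was at 3480, 3590 and 3480 FPKM in MIA PaCa-2 and 768, 800 and 780 FPKM in PATU8988T (log2 difference 2.17 ± 0.046, SE; limma adjusted p = 1.1e-07), abundant in both. NES, nestin (3.91), the secreted TGFBI (3.51), the TGF-beta co-receptor ENG (3.26), the calcium-binding S100A4 (2.8) and the hyaluronan receptor CD44 (2.15) were also higher in MIA PaCa-2 on the log2 scale. Other members of the list were higher in PATU8988T. CNN3, calponin 3, was at 0.123, 0.126 and 0.139 FPKM in MIA PaCa-2 and 41.4, 40.5 and 38.7 FPKM in PATU8988T (log2 difference -7.46), and LOX (-5.19), TPM1 (-4.44), MAP1B (-4.02) and the receptor kinase AXL (-2.68) followed. CDH2, N-cadherin, averaged 7.91 FPKM in PATU8988T and was listed at 0 in all MIA PaCa-2 libraries. FN1, fibronectin, averaged 0.0415 and 1.64 FPKM.

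The matrix genes separated by family. Among 19 tested collagens and laminins, 8 were higher in MIA PaCa-2, all of them collagens, and 9 were higher in PATU8988T, of which 7 were laminin chains. COL1A2 was at 152, 182 and 152 FPKM in MIA PaCa-2 and 0, 0.0112 and 0 FPKM in PATU8988T, while its partner chain COL1A1 averaged 0.0941 and 0.0674 FPKM. COL5A2 (7.39), COL6A2 (6.54) and COL4A2 (5.79) were further collagens with large positive log2 differences, and COL12A1 went the other way, at 9.22, 9.98 and 9.53 FPKM in PATU8988T and listed at 0 in the MIA PaCa-2 controls. Among the laminins, which build basement membranes, LAMB3 was at 0.282, 0.527 and 0.356 FPKM against 62.2, 62.6 and 64.5 FPKM (log2 difference -7.05) and LAMA3 at means of 0.0314 and 5.75 FPKM (-5.48).

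Integrins, the receptors for these matrix proteins, were called in one direction. Of 10 tested, 9 were higher in PATU8988T and none in MIA PaCa-2, with a median log2 difference of -3.15. The laminin-binding ITGA3 was at 36.7, 51.7 and 35.9 FPKM in MIA PaCa-2 and 357, 357 and 365 FPKM in PATU8988T (log2 difference -3.13), and ITGA6 at 7.62, 4.22 and 7.8 FPKM against 69.7, 71.9 and 69.6 FPKM (-3.46). Its partner ITGB4 was at 0.629, 1.46 and 0.664 FPKM against 29.3, 30 and 30.4 FPKM (-4.97). The collagen receptors ITGA2 (-6.43) and ITGA1 (-4.34) showed larger log2 differences at lower levels. ITGB1, the common beta chain, was at 203, 136 and 198 FPKM against 281, 283 and 278 FPKM and was not called. ITGAV (-1.34) was not called without MIA PaCa-2 control 2.

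Pancreatic lineage factors were sparse. Of 32 pancreatic and foregut transcription factors, 24 were below 1 FPKM, among them PDX1, PTF1A and GATA6 (means of 0.147 and 0.674 FPKM). Of the 8 tested, 4 were higher in MIA PaCa-2, as against 1 in PATU8988T. SOX9, a ductal and progenitor factor, was at 39, 35 and 38.3 FPKM in MIA PaCa-2 and 2.39, 2.14 and 2.35 FPKM in PATU8988T, a log2 difference of 3.97 ± 0.0945 (SE; limma adjusted p = 1.58e-07). BARX2 (7.01), the NOTCH effector HES1 (4.57) and the pioneer factor FOXA1 (2.62) were the others by log2 difference, and MECOM was at 2.2, 2.48 and 2.24 FPKM in PATU8988T and listed at 0 in the MIA PaCa-2 controls.

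Signature genes of the classical and basal-like subtypes were mostly low or divided. Of 31 classical genes 26 were below 1 FPKM, and the few expressed were mostly in MIA PaCa-2, with CEACAM1 at 12.8, 9.64 and 12.7 FPKM against 0.0453, 0.0158 and 0.00753 FPKM, AGR2 at 4.77, 3.72 and 5.6 FPKM with the PATU8988T controls listed at 0, and ANXA10 and S100P at means of 39.5 and 3.74 FPKM and listed at 0 in PATU8988T. Of 9 tested basal-like genes, 4 were higher in each line. The EGFR ligand AREG was at 56.1, 42.7 and 59.6 FPKM in MIA PaCa-2 and 0.307, 0.414 and 0.241 FPKM in PATU8988T (log2 difference 6.98), and the long noncoding RNA UCA1 averaged 56.5 FPKM in MIA PaCa-2 and was listed at 0 in PATU8988T. ANXA8 (-4.68), which has near-identical copies that can share reads, was higher in PATU8988T.

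Most neuroendocrine and neuronal genes were low, 27 of 37 lying below 1 FPKM. Of the 10 tested, 8 were higher in MIA PaCa-2 and 1, the neuronal enolase ENO2 (-1.37), in PATU8988T, with a median log2 difference of 3.12. SCG2, a granin of secretory vesicles, was at 86.8, 67 and 86.5 FPKM against 0.0222, 0.035 and 0 FPKM. The microtubule regulator STMN3 was at 36.3, 58.7 and 36 FPKM against 0.31, 0.256 and 0.332 FPKM (log2 difference 6.74), and L1CAM (4.65) and the vesicle protein SYP (2.37) were also higher. CHGA, INSM1 and NEUROD1, which define neuroendocrine cells, were at or near 0 in both lines.

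HOX genes, which record position along the body axis, were higher in MIA PaCa-2 in 7 of 13 tested and in PATU8988T in 1. HOXB9 was at 45.7, 50.5 and 48.3 FPKM against 3.36, 3.01 and 2.65 FPKM (log2 difference 3.96), HOXB8 at 20.1, 23.2 and 21.5 FPKM against 0.911, 0.742 and 0.902 FPKM (4.51), and HOXB13 averaged 4.87 FPKM with PATU8988T listed at 0. HOXC9 was called in the other direction (-4.3), and HOXA5, HOXA6 and HOXC13, below a mean of 1 FPKM over the 6 libraries, averaged 0.906, 0.527 and 1.35 FPKM in PATU8988T and were listed at 0 in MIA PaCa-2. Of 6 tested oncofetal genes 2 were called, both higher in MIA PaCa-2: H19, an imprinted noncoding RNA, at 15.8, 26.6 and 15.7 FPKM against 0.302, 0.448 and 0.333 FPKM, and the RNA-binding IGF2BP3 (log2 difference 2.33).

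Markers of other cells were few. All 13 acinar markers were below 1 FPKM in both lines, all 10 endothelial markers as well, and of the islet markers only PAX6 reached it, at 3.95, 3.31 and 3.73 FPKM in MIA PaCa-2 and 1.41, 1.51 and 1.68 FPKM in PATU8988T. Summed over 11 fibroblast markers, the MIA PaCa-2 libraries held 158 to 188 FPKM, nearly all of it COL1A2, and the PATU8988T libraries 2.97 to 3.33 FPKM; the defining DCN was at 0 in the 6 controls, and LUM, PDGFRA and THY1 were at or near 0. Of 13 immune markers, summing to 50.8 to 68.5 FPKM against 13.8 to 14.1 FPKM, CD68 was the highest in both lines, and PTPRC, the leukocyte antigen CD45, was at 4.45, 2.32 and 3.76 FPKM in MIA PaCa-2 against 0, 0.00435 and 0 FPKM. The part of other cells in any result was not tested.

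The genes most often altered in pancreatic cancer included several on-off differences, and of 18 tested 2 were higher in MIA PaCa-2 and 7 were higher in PATU8988T. MYC was not called (log2 difference 0.44). CDKN2A, which encodes the p16 and ARF tumour suppressors, was at 23.7, 24.7 and 23.5 FPKM in PATU8988T and listed at 0 in all MIA PaCa-2 libraries. SMAD4, the shared transducer of TGF-beta and BMP signals, was the mirror image, at 9.57, 6.54 and 9.47 FPKM in MIA PaCa-2 and listed at 0 in all PATU8988T libraries. Chromatin remodelling subunits also differed. SMARCA4, the BRG1 ATPase, was at 52.1, 68.3 and 52.9 FPKM against 2.91, 3.03 and 2.99 FPKM (log2 difference 4.22), while SMARCA2 (-2.42), ARID2 (-1.83) and ARID1A (-1.77) were higher in PATU8988T, and ARID1B averaged 10.8 FPKM there and was listed at 0 in MIA PaCa-2. The histone demethylase KDM6A averaged 7.24 FPKM in PATU8988T and was listed at 0 in MIA PaCa-2. No DNA was measured, and whether any of these loci is present was not tested.

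Several of the 173 genes listed at 0 in one line were neighbours. They comprised 111 listed at 0 in MIA PaCa-2, as against 62 in PATU8988T, and 167 had a RefSeq position in GRCh38.p14. Runs were read along each chromosome over genes with at least 0.5 FPKM in either line. This level was lower than that for testing, so runs could hold genes outside the 173, such as MIR31HG. The longest run listed at 0 held 9 genes in MIA PaCa-2, as against 3 in PATU8988T. The run of 9 lay on the short arm of chromosome 9, from 20655625 to 25678444, and comprised FOCAD, KLHL9, MIR31HG, the methionine salvage gene MTAP, CDKN2A, CDKN2B-AS1, CDKN2B, DMRTA1 and TUSC1. These averaged 8.81, 6.96, 0.52, 4.16, 23.9, 0.682, 3.12, 0.986 and 10.9 FPKM in PATU8988T, in that order. CDKN2A, CDKN2B and CDKN2B-AS1 overlap or adjoin, so reads could be shared among them. MLLT3, the next expressed gene before the run, was likewise at 0 in the 3 MIA PaCa-2 controls and at 5.06, 5.4 and 4.91 FPKM in PATU8988T. Beyond it on that side, RPS6 was at 683, 558 and 678 FPKM against 652, 626 and 651 FPKM, and on the other side CAAP1 was at 8.28, 3.81 and 7.74 FPKM against 8.03, 7.27 and 7.89 FPKM, so the flanking genes were expressed in both.

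Shorter stretches also differed. Runs of at least 3 genes numbered 6 in MIA PaCa-2, the run of 9 included, and 1 in PATU8988T. In MIA PaCa-2 they included 5 genes from ARHGEF35 to ARHGEF5 on chromosome 7 and 4 from ENPP4 to SLC25A27 on chromosome 6. On chromosome 18, CDH2 and DSC2 were consecutive among expressed genes and both listed at 0 in MIA PaCa-2, from 27932879 to 31102421. The promoter of DSG2, given above, lies past them. On the X chromosome, FUNDC1 and KDM6A were consecutive and both listed at 0 in MIA PaCa-2, with PATU8988T means of 31 and 7.24 FPKM. Around SMAD4 on chromosome 18 there was no run at 0, since the expressed neighbours were detected in both lines, at lower levels in PATU8988T. ME2, the mitochondrial malic enzyme, was at 19, 13.2 and 19.6 FPKM in MIA PaCa-2 and 0.15, 0.179 and 0.215 FPKM in PATU8988T, and ELAC1, MEX3C and SKA1 averaged 5.01 against 1.36, 27.1 against 8.1 and 21 against 8.96 FPKM. The most abundant genes listed at 0 in MIA PaCa-2 were the collagen-modifying PLOD2 (mean of 217 FPKM in PATU8988T), the vitamin D hydroxylase CYP24A1 (190 FPKM), the mitophagy receptor BNIP3 (112 FPKM) and KISS1 (109 FPKM). Those listed at 0 in PATU8988T included LOC107986381 (mean of 91.1 FPKM in MIA PaCa-2), the metallothionein MT1A (70.6 FPKM, one of a family with near-identical members) and UCA1.

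**Figure D2:**
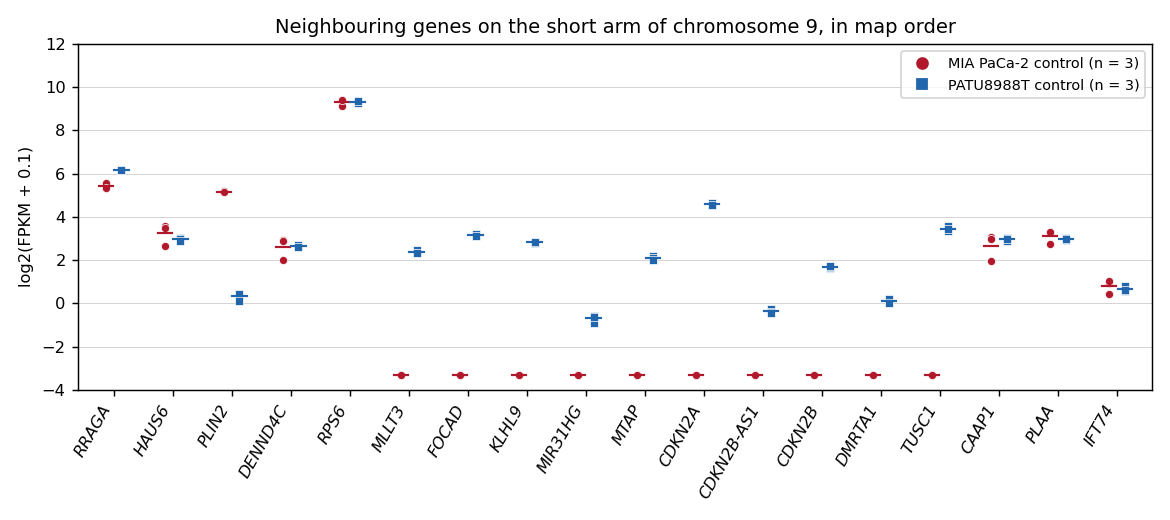
Levels as log2(FPKM + 0.1) of neighbouring genes on the short arm of chromosome 9, in map order and showing genes with at least 0.5 FPKM in either line; circles are MIA PaCa-2 and squares PATU8988T control libraries, with the mean as a short line. From MLLT3 to TUSC1 the MIA PaCa-2 points lie at the floor given by a level of 0, and on both sides the lines lie within 1 of each other by their means except at PLIN2.

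In metabolism, the clearest one-sided lists were glycolysis and sterol synthesis, both higher in PATU8988T. Of 28 tested genes of glycolysis and lactate export, 13 were higher in PATU8988T and 3 in MIA PaCa-2, with a median log2 difference of -0.87. ALDOC, an aldolase, was at 7.07, 8.78 and 6.35 FPKM in MIA PaCa-2 and 472, 467 and 476 FPKM in PATU8988T (log2 difference -5.99). PFKFB4 was at 2.78, 4.21 and 2.87 FPKM against 28.5, 27.9 and 29.8 FPKM (-3.11). The glucose transporter SLC2A1 was at 29.7, 40.1 and 30.4 FPKM against 155, 163 and 162 FPKM (-2.27), and LDHA, lactate dehydrogenase A, at 599, 547 and 604 FPKM against 1470, 1440 and 1450 FPKM (-1.32). GAPDH, at 3280, 3900 and 3160 FPKM against 3720, 3670 and 3780 FPKM, and PKM were not called. MIA PaCa-2 was higher in PCK2, the mitochondrial PEP carboxykinase (4.59), in the lactate exporter SLC16A3 (2.88) and in SLC2A3 (2.31), which has a close copy, SLC2A14. In the shOFD1 libraries the same 28 genes gave 4 calls in each direction and a median of 0.14, and this difference between the list counts was not tested.

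Sterol genes were called higher in PATU8988T in 13 of 23 and in MIA PaCa-2 in none, with a median log2 difference of -1.11. HMGCS1, an early enzyme of the mevalonate pathway, was at 12.2, 8.98 and 10.9 FPKM in MIA PaCa-2 and 100, 96.6 and 95.7 FPKM in PATU8988T (log2 difference -3.19). SC5D (-2.91), SQLE (-2.56), MSMO1 (-2.25) and the sterol sensor INSIG1 (-2.12) shared the direction, and STARD4 averaged 23.2 FPKM in PATU8988T and was listed at 0 in MIA PaCa-2. The shOFD1 libraries gave 6 calls, all higher in PATU8988T, and a median of -0.55. Fatty acid genes were less one-sided, with 10 of 31 higher in PATU8988T and 6 in MIA PaCa-2. The elongase ELOVL6 was at 0.0486, 0.0367 and 0.0749 FPKM against 15, 14.7 and 13.7 FPKM (log2 difference -6.57), and the desaturase SCD at 320, 272 and 326 FPKM against 1400, 1470 and 1420 FPKM (-2.23). MIA PaCa-2 had more of the lipid droplet coat PLIN2, at 35.4, 37.1 and 35.6 FPKM against 1.25, 1.26 and 0.971 FPKM (4.85), of CPT1C (3.75) and of DGAT2 (2.44).

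Mitochondrial genes differed little as groups. The tricarboxylic acid cycle list gave 5 calls in each direction among 28, beside 15.3% and 16.4% of all tested genes. Its extremes were the malic enzymes. ME2 had a log2 difference of 5.93, and ME3 was at 5.74, 5.49 and 6.09 FPKM in PATU8988T and listed at 0 in the MIA PaCa-2 controls. MDH2 (1.65) and DLD (1.58) were higher in MIA PaCa-2, and the cytosolic aconitase ACO1 (-1.62) in PATU8988T. Of 69 nuclear-encoded respiratory chain subunits, 61 were not called, with 5 higher in MIA PaCa-2, led by NDUFA10 (1.74), and 3 in PATU8988T, led by ATP5MC2 (-1.92). The 13 mitochondrially encoded genes had a median log2 difference of 0.57, which was 0.06 after quantile normalisation, and 2 were called, ND2 (1.43) and ATP8 (2.51), the latter overlapping ATP6.

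Amino acid genes diverged at single steps. GLUL, glutamine synthetase, was at 0.0348, 0.0124 and 0.0127 FPKM in MIA PaCa-2 and 12, 12.4 and 12.8 FPKM in PATU8988T (log2 difference -6.71), creatine kinase CKB had a difference of -3.12, and the urea cycle enzyme CPS1 was higher in MIA PaCa-2 (3.28). In the polyamine branch, ODC1 was at 80.3, 74.5 and 76.9 FPKM against 27.3, 28.1 and 28.1 FPKM (1.47), and SRM (1.6) and AMD1 (1.26) pointed the same way. Transporters were higher in PATU8988T in 6 of 14, among them the cystine importer SLC7A11, at 1.1, 0.542 and 1.09 FPKM against 22, 23.2 and 21.9 FPKM (-4.53), and higher in MIA PaCa-2 in 2, led by SLC38A4 (5.2). Of 21 serine, glycine and folate genes 18 were not called, and MAT1A (-4.65) was the largest difference. In the NAD list, the nicotinamide riboside kinase NMRK1 (-4.9) and the transhydrogenase NNT (-3.34) were higher in PATU8988T and QPRT (2.86) in MIA PaCa-2. The pentose phosphate and hexosamine list had 10 of 14 members not called, with PGD (1.08) higher in MIA PaCa-2 and UAP1 (-1.42), PGM3 (-1.28) and GFPT2 (-1.13) in PATU8988T.

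Redox and detoxification genes did not move as one set. Of 27 tested NRF2 target and glutathione genes, 4 were higher in MIA PaCa-2, as against 6 in PATU8988T. Over all tested genes the shares were 15.3% and 16.4%. HMOX1, haem oxygenase, was at 15.3, 18.6 and 15.2 FPKM in MIA PaCa-2 and 476, 498 and 494 FPKM in PATU8988T (log2 difference -4.9), and AKR1B1 at 3.96, 5.03 and 4.53 FPKM against 81.1, 77.9 and 81.5 FPKM (-4.13). The exporter ABCC2 was at 15.9, 13.2 and 15.9 FPKM against 0.267, 0.222 and 0.233 FPKM (5.47), while NFE2L2, which encodes NRF2, was at 23.5, 14.9 and 24.4 FPKM against 23.1, 23 and 22.2 FPKM. AKR1C1 (6.07) and AKR1C3 (-3.43) went opposite ways, but these near-identical genes can share reads. Among aldehyde and xenobiotic enzymes 7 of 16 were higher in MIA PaCa-2, including ALDH1A3 (2.94), the carbonyl reductase CBR3 (3.84) and the gemcitabine-inactivating deaminase CDA, at 11, 13.2 and 11.9 FPKM against 1.87, 1.23 and 1.2 FPKM (3.0), and 2 in PATU8988T, ALDH2 (-4.63) and the retinoic acid hydroxylase CYP26B1 (-3.96). In the metal list, the transferrin receptor TFRC (1.77) was higher in MIA PaCa-2 and the importers SLC39A8 (-3.37) and SLC11A2 (-1.74) in PATU8988T.

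Receptor tyrosine kinases were more often higher in PATU8988T, in 11 of 21 tested, against 7 in MIA PaCa-2. MST1R, the receptor RON, was at 0.077, 0.118 and 0.0531 FPKM in MIA PaCa-2 and 27.5, 26.4 and 28.7 FPKM in PATU8988T (log2 difference -7.25), its relative MET at 6.15, 4.2 and 5.91 FPKM against 39.5, 41.3 and 39.8 FPKM (-2.89), and PTK7 (-3.33) and AXL (-2.68) were alike in direction. EGFR was at 21.4, 15 and 21.1 FPKM against 38.4, 40.7 and 39.8 FPKM (-1.06), a call lost without MIA PaCa-2 control 2. Ephrin receptors were divided. EPHA4 was at 20.1, 16.7 and 19.2 FPKM against 0.0122, 0.00855 and 0.00407 FPKM (7.43), while EPHA2 (-2.15) was higher in PATU8988T. DDR2, a collagen-binding kinase, was higher in MIA PaCa-2 (3.38).

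Ligands of receptor kinases were called higher in each line in 4 of 18 tested, and 10 were not called. The EGFR ligand EREG, epiregulin, was at 44.4, 17.6 and 46 FPKM against 0, 0 and 0.0234 FPKM (log2 difference 8.27), AREG is given above, and BTC, betacellulin, had a difference of 3.05. VEGFC averaged 20.6 FPKM in MIA PaCa-2 and was listed at 0 in PATU8988T, whereas VEGFA was at 6.35, 5.92 and 5.86 FPKM against 19.8, 19.8 and 19.9 FPKM (-1.7), and the AXL ligand GAS6 (-2.58) was higher in PATU8988T. Of 31 MAPK output and feedback genes 22 were not called. PATU8988T was higher in 7, including the ERK phosphatase DUSP6, at 1.27, 1.2 and 1.25 FPKM against 15.6, 15.9 and 16.3 FPKM (-3.58), IER3 (-3.37), DUSP5 (-2.76) and the AP-1 subunit FOSL1 (-2.38). MIA PaCa-2 was higher in SPRY1 (2.76) and EPHA4.

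TGF-beta and BMP components were divided between the lines, without a split by family. TGFBR2, the type II TGF-beta receptor, was at 19.9, 20.5 and 19.1 FPKM in PATU8988T and listed at 0 in the MIA PaCa-2 controls, and the ligand TGFB1 was at 7.9, 11.1 and 7.79 FPKM against 58, 60.3 and 57.7 FPKM (log2 difference -2.72). SMAD4, as given above, was listed at 0 in PATU8988T. The helix-loop-helix genes of the list, which BMP signals are known to induce, included ID3 at 195, 283 and 206 FPKM against 0.228, 0.179 and 0.483 FPKM (9.22), ID1 at 117, 168 and 124 FPKM against 6.67, 7.06 and 6.87 FPKM (4.27) and ID2 (5.34). TGFB3 (4.71), the antagonist NOG (3.98) and BMP7 (2.49) were also higher in MIA PaCa-2, as were the ID genes. In all, 7 of 21 tested members were higher in MIA PaCa-2, as against 9 in PATU8988T.

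All NOTCH genes called were higher in MIA PaCa-2, 8 of 12 tested, with a median log2 difference of 1.88. JAG1, a ligand, was at 86.3, 74.7 and 85.4 FPKM in MIA PaCa-2 and 0.128, 0.119 and 0.118 FPKM in PATU8988T (8.53 ± 0.104, SE; limma adjusted p = 2.83e-08). The receptor NOTCH4 was at 2.15, 2.5 and 2.1 FPKM against 0.0161, 0.0168 and 0.024 FPKM (4.3), the target genes HES1 and NRARP had log2 differences of 4.57 and 3.02, and JAG2 one of 2.31. NOTCH1 (0.68) and NOTCH2 (0.19), the most abundant receptor in both lines, were not called.

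WNT components gave 6 calls in each direction among 21. WNT5B, a noncanonical ligand, was at 0.165, 0.454 and 0.165 FPKM against 26.8, 28 and 29.5 FPKM (log2 difference -6.38), and FZD6 (-3.66), WNT3 (-3.29) and DKK3, at 0, 0.00735 and 0 FPKM against 32.9, 33.1 and 35 FPKM, were also higher in PATU8988T. The inhibitor DKK1 was at 69.7, 58.9 and 71.3 FPKM against 2.16, 1.93 and 1.73 FPKM (5.03), and the receptor FZD4 (4.36) and the transcription factor TCF7 (4.29) were higher in MIA PaCa-2. In the Hedgehog list, the ligand SHH was at 3.45, 4.39 and 3.6 FPKM in MIA PaCa-2 and under 0.0171 FPKM or equal to it in PATU8988T (5.12), and the receptor PTCH1 (-2.24) was higher in PATU8988T. GLI1 averaged 0.224 and 0.0577 FPKM.

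Genes of the YAP and TEAD pathway were higher in PATU8988T in 16 of 22 tested and in MIA PaCa-2 in 1, with a median log2 difference of -1.56. The transcriptional targets led, CCN2 as given above, ANKRD1 at 0.0999, 0.14 and 0.0858 FPKM in MIA PaCa-2 and 34.7, 32.7 and 30.8 FPKM in PATU8988T (-7.3), CCN1 at 28.8, 34 and 28.6 FPKM against 566, 574 and 567 FPKM (-4.22), AMOTL1 (-3.82) and AJUBA (-3.35). The coactivators themselves diverged, YAP1 being higher in PATU8988T, at 24.4, 16.9 and 23.9 FPKM against 59.9, 61.5 and 60.1 FPKM (-1.49), and its paralogue WWTR1, which encodes TAZ, higher in MIA PaCa-2, at 49.3, 36.8 and 48.9 FPKM against 15.5, 17.3 and 16.3 FPKM (1.44). TEAD1 (-1.92) was higher in PATU8988T, and TEAD2, TEAD3 and TEAD4 were not called.

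Promoters of these genes were read for CATTCC, or GGAATG on the other strand, the core of the TEAD motif. The motif was chosen after the values were seen. The list holds genes already known as part of this pathway, and members not called were not examined. The share below therefore does not bear on the line difference. RefSeq held promoters for 12 of the 16 genes called higher in PATU8988T, and the motif stood in 8 of their 19 promoters (42.1%), of AJUBA, AMOTL2, ANKRD1, AXL, CCN2, LATS2, PTPN14 and YAP1, beside 4928 of 35116 promoters overall (14%). The promoters of the 2 targets with the widest gap are given with the motif in capitals, CCN2 at chr6:131951323-131951622 and ANKRD1 at chr10:90921038-90921337, both on the minus strand of GRCh38.p14.
CCN2: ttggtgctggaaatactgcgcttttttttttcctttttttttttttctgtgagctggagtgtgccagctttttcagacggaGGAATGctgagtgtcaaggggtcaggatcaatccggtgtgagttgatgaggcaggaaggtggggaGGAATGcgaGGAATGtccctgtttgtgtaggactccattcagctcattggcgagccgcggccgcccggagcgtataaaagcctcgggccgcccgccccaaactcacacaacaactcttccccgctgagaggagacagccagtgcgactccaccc
ANKRD1: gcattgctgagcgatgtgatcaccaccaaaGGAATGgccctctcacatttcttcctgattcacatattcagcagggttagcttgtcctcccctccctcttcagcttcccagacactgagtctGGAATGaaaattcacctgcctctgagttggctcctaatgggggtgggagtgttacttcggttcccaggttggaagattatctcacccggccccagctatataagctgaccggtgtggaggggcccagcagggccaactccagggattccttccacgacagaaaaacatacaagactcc

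Inflammatory genes were more often higher in PATU8988T, in 9 of 21 tested, against 4 in MIA PaCa-2. IL32 was at 0.0396, 0.0195 and 0.119 FPKM in MIA PaCa-2 and 74.9, 71.1 and 76.4 FPKM in PATU8988T (log2 difference -8.91), IL18 had a difference of -6.68 and the oncostatin M receptor OSMR one of -6.51. The neutrophil chemokines went the other way, with CXCL8 at 9.35, 5.64 and 9.04 FPKM against 0.158, 0.276 and 0.275 FPKM (4.58), CXCL1 (4.14), and CXCL5 at a mean of 10.4 FPKM and listed at 0 in PATU8988T. In the shOFD1 libraries the counts of this list were 6 and 8 and the median changed from -0.9 to 0.18.

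Interferon genes were called in both directions. Of 30 tested, 10 were higher in MIA PaCa-2, among them antiviral effectors, with BST2, tetherin, at 42.3, 58.3 and 42.1 FPKM against 0.0541, 0 and 0.0539 FPKM (log2 difference 8.46), OAS2 (5.61), IFIT3 (4.78) and OAS1 (3.93). The 8 higher in PATU8988T included another synthetase of the same family, OAS3 (-1.07), the regulator IRF7, at 0.0124, 0 and 0 FPKM against 7.07, 6.94 and 7.32 FPKM (-6.11), and the immunoproteasome subunits PSMB8 (-3.4) and PSMB9 (-2.03). B2M, beta-2-microglobulin, was at 148, 133 and 143 FPKM against 142, 137 and 136 FPKM and was not called.

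**Figure D3:**
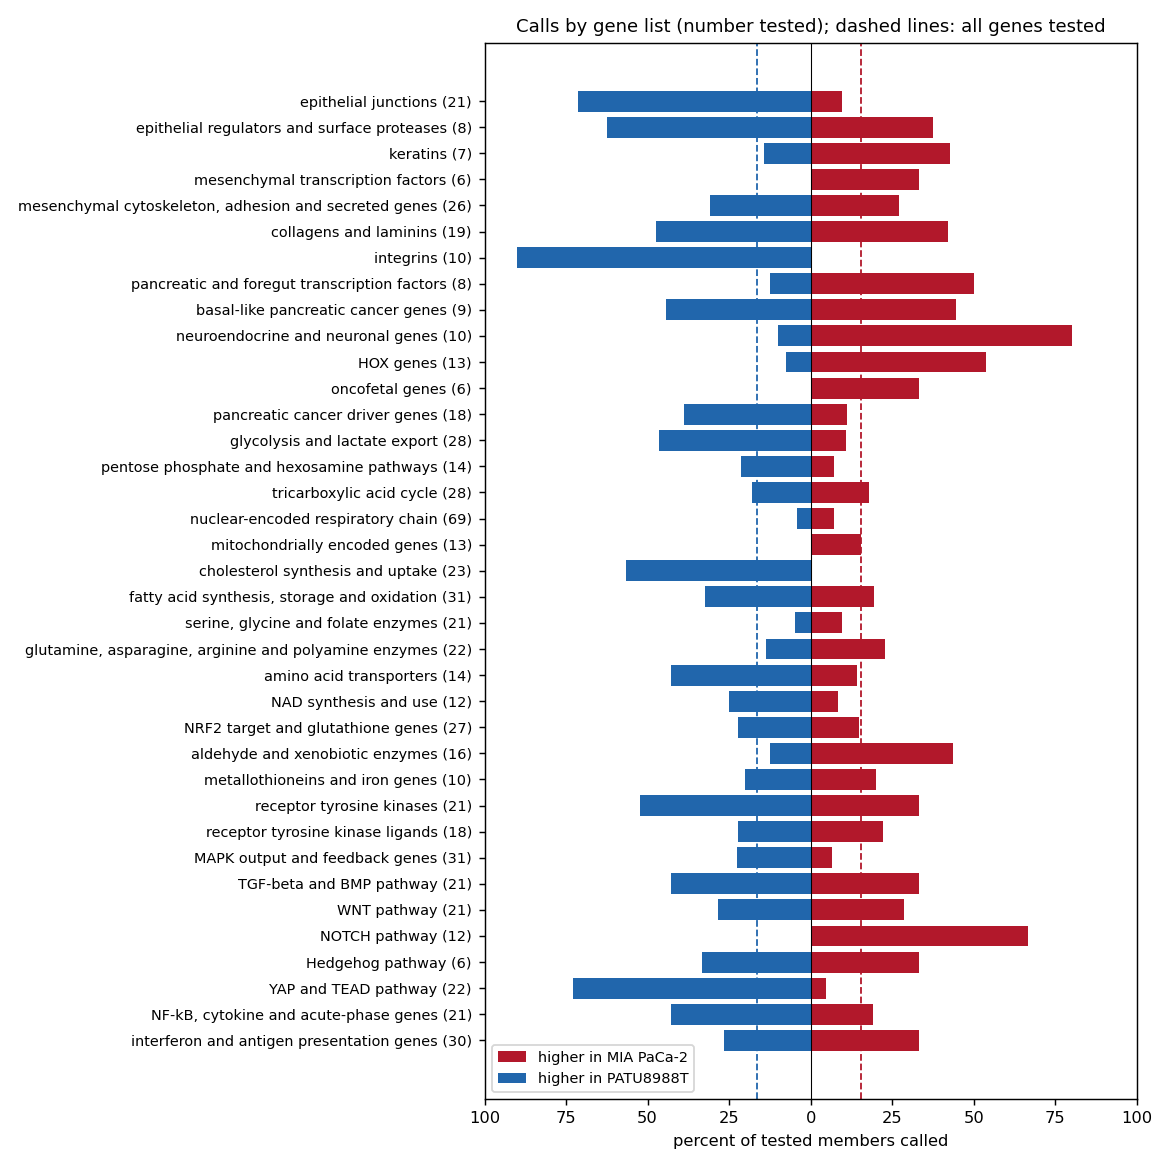
Percent of tested members called, by list, to the left for genes higher in PATU8988T and to the right for genes higher in MIA PaCa-2, with the number tested in parentheses and the shares over all genes, 16.4% and 15.3%, as dashed lines; lists with fewer than 6 tested members are not drawn. Integrins (9 of 10), YAP and TEAD genes (16 of 22) and epithelial junctions (15 of 21) reach farthest left, and neuronal genes (8 of 10) and NOTCH genes (8 of 12) farthest right.

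The shOFD1 libraries gave the line differences a second reading at the same genes. They entered the control comparison only through the rule that set aside genes listed at 0. There 1640 genes (15.0%) were called higher in MIA PaCa-2, while 1769 (16.2%) were called higher in PATU8988T. Of the genes higher in MIA PaCa-2, 1155 were shared, 69.1% of the control calls and 70.4% of the shOFD1 calls, and of those higher in PATU8988T 1292 were shared, 72.4% and 73.0%. Of the 3456 genes called in the controls, 3362 (97.3%) had the same direction. These genes were already past 2-fold in the controls, and the share over all tested genes was not counted. Given as higher in MIA PaCa-2 and higher in PATU8988T, the shOFD1 libraries had 2 and 12 calls for epithelial junctions, 0 and 8 for integrins, 8 and 0 for NOTCH genes and 1 and 15 for YAP and TEAD genes. Other lists moved more, the epithelial regulators from 3 and 5 calls with a median of -1.44 to 3 and 3 with a median of -0.06, and the mesenchymal effectors from 7 and 8 to 7 and 5. VIM had a log2 difference of 2.17 in the controls and 3.05 in the shOFD1 libraries, ZEB1 of 0.13 and 1.09, and ALDOC of -5.99 and -2.78, with LOX at -5.19 and -1.65. TSPAN1 and GDF15 were the only genes called in opposite directions.

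**Figure D4:**
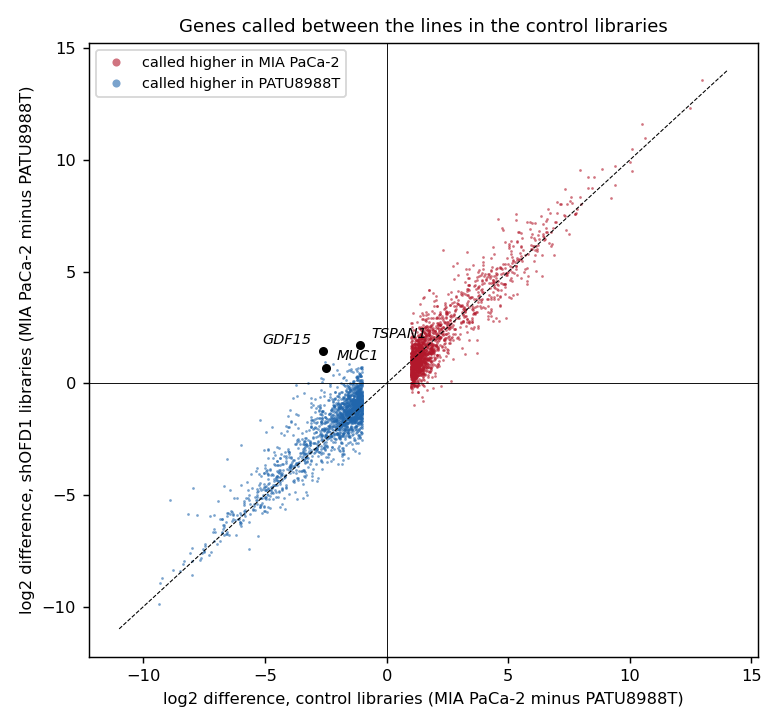
Log2 difference between the lines, MIA PaCa-2 minus PATU8988T on log2(FPKM + 0.1), in the shOFD1 libraries (vertical) against the control libraries (horizontal) for the 3456 genes called in the controls; the dashed line marks equal differences. Most points, 97.3%, share the sign, and MUC1, TSPAN1 and GDF15 are marked as genes below 0 in the controls and above 0 in the shOFD1 libraries.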

How the data were processed

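RNA was extracted and libraries made by different kits according to the sources: the labels name RNeasy extraction and a SMARTer kit, the published methods TRIzol and a VAHTS kit. Libraries were sequenced on an Illumina NovaSeq instrument, aligned with HISAT2 and counted with HTSeq-count. The submitters' processing notes name hg38, mm10 and GRCm38 without a role, and tool versions and annotation are not given in the sources used here. The deposited values are FPKM, computed by the authors per gene and library, and the depth was recovered from the steps of these values (35257402 to 39797537 reads counted per control library). Of 3 PATU8988T controls, 2 carry source labels naming PaTu 8989T and PaTu 8990T, and the same holds for the shOFD1 libraries of this line. The titles, which say PaTu 8988T, were followed.

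FPKM were transformed as log2(FPKM + 0.1) and fitted with limma 3.58.1 in R 4.3.3 (lmFit, eBayes with a variance trend) on the 6 control libraries, with Benjamini-Hochberg adjustment over the 10911 tested genes and a call at adjusted p below 0.05 and a fold above 2. The same fit was run on the 6 shOFD1 libraries. Comparisons of 3 against 3 libraries allow no exact permutation p below 0.1, so single-gene permutation tests were not used. Tables and figures were made with Python 3.11.15, pandas 2.3.3 and matplotlib 3.10.9, and the fit was tested on simulated data. The 43 gene lists (1139 genes, 679 tested) and the comparison were chosen with earlier results of these data known. Named genes were a core set, up to 4 per list and direction with the largest called differences whose libraries did not overlap, the 10 largest differences overall in each direction, the 10 most abundant genes listed at 0 in each line, and list members listed at 0. Other list members, gene neighbours and promoters were named after their values were seen. Genes that overlap or have near-identical copies may share reads. Alternatives were other pseudocounts, filters, scalings, weights, fits and left-out libraries, and those for the shOFD1 fit were added after the data were seen. Some genes of the lists are counted but not reported here by name.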

Additional observations from a re-analysis of the deposited data

Results flagged for a closer look

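For 6 named genes the 3 libraries of one line lay wholly above those of the other in the controls and wholly below them in the shOFD1 libraries. The difference was tested as an interaction in limma over all 12 libraries. The values below are the control log2 difference minus the shOFD1 log2 difference, with the Benjamini-Hochberg adjusted p over all tested genes. An interaction with adjusted p below 0.05 and a fold above 2 held for 1090 of the 10911 tested genes (9.99%).

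MUC1, the epithelial mucin, was at 1.3, 1.45 and 1.16 FPKM in the MIA PaCa-2 controls and 7.97, 8.67 and 7.09 FPKM in the PATU8988T controls, but at 6.13, 6.42 and 5.88 FPKM and 3.76, 4.15 and 3.34 FPKM in the shOFD1 libraries (-3.22, limma adjusted p = 1.61e-07). TSPAN1, a tetraspanin, was at 2.06, 2.82 and 1.85 FPKM against 4.54, 4.3 and 5.56 FPKM in the controls and 7.39, 6.8 and 6.98 FPKM against 1.62, 2.3 and 2.54 FPKM in the shOFD1 libraries (-2.77, limma adjusted p = 1.09e-05), although its control difference was not called without MIA PaCa-2 control 3 (-0.95) or PATU8988T control 3 (-0.97). GDF15, a stress-responsive TGF-beta family ligand, was at 0.193, 0.731 and 0.343 FPKM against 2.88, 2.36 and 3.17 FPKM in the controls and 10.9, 12 and 12.1 FPKM against 4.11, 4.59 and 3.94 FPKM in the shOFD1 libraries (-4.05, limma adjusted p = 1.88e-05). In TSPAN1 and GDF15 the difference was called in both comparisons, in opposite directions.

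In the other 3 the gap between the lines was narrow in the shOFD1 libraries, where none of them was called. The enolase ENO2 was at 32.2, 38.2 and 31.5 FPKM against 86.4, 85.5 and 90.9 FPKM in the controls and at 37.8 to 39.9 FPKM against 35.1 to 37.4 FPKM in the shOFD1 libraries (-1.48, limma adjusted p = 1.53e-06). ODC1, the first enzyme of polyamine synthesis, was at 80.3, 74.5 and 76.9 FPKM against 27.3, 28.1 and 28.1 FPKM in the controls and at 36.7 to 37.2 FPKM against 37.8 to 39 FPKM in the shOFD1 libraries (1.52, limma adjusted p = 5.52e-08). The arginase ARG2 was at 9.68, 11 and 9.81 FPKM against 22, 22.1 and 22.4 FPKM in the controls and at 30 to 31.5 FPKM against 23.3 to 25.3 FPKM in the shOFD1 libraries (-1.48, limma adjusted p = 5.87e-07).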

How the results depend on the processing

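Across the 18 alternatives to the control fit, 219 of 231 named genes tested had the same call under each alternative that tested them. None reversed, and 152 named genes were tested at a mean of at least 5 FPKM. Apart from the core set, these genes were chosen as the largest called differences, so their calls were likely to hold. Among all 3456 called genes, 336 were not called without MIA PaCa-2 control 2. The count of genes higher in MIA PaCa-2 and that of genes higher in PATU8988T moved by more than 1.5 times only with the filter on low values, to 975 and 984 at a mean of at least 5 FPKM and 2600 and 2842 with no filter, as fewer or more genes were tested, and the line difference in the shOFD1 libraries then counted 1846 genes at 5 FPKM. Leaving out 1 library gave 1648 to 1712 and 1735 to 1821 genes. With the replicate number as a block (replicate block) the counts were 1670 and 1786. Deviations of same-numbered libraries of the lines correlated at 0.112, -0.164 and -0.25, and those of differently numbered libraries at -0.242 to 0.273. Deviations centred within a line constrain each other, so these values cannot say whether same-numbered libraries were handled together. Some list medians moved beyond the spread between replicates, with no sign change among those that follow. With a pseudocount of 1 they were -1.8 for epithelial junctions, -1.66 for integrins, 1.82 for neuronal genes, 0.97 for HOX genes, 1.18 for NOTCH genes and -1.38 for YAP and TEAD genes, and with 0.01 neuronal genes gave 3.57. At 5 FPKM they were -2.55, -2.46, 1.77, 1.48 and 0.98 for the first 5 of these lists, and with no filter -1.71, -1.53, 0.86, 0.91 and 1.27. Keeping genes at 0 in one line gave -2.35 for epithelial junctions and 1.48 for HOX genes. The median of the NOTCH pathway was 1.65 to 2.02 when 1 library was left out, lowest without MIA PaCa-2 control 2, and 1.65 with library weights. The cause was not tested. Of 41 lists with a median, 27 kept its sign under every alternative. Genes of the lists called with all libraries but not without MIA PaCa-2 control 2 included KLF5, ITGAV, NT5E, EGFR, ATM, BMPR2, FZD3, CDON, SLC38A2 and PYCR3, and NDUFA5 was not called without MIA PaCa-2 control 1 or 3. Levels near 0 rest on few reads, and an exact 0 may be a failed estimate.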
